A study of Mus musculus with 24 samples.

Results

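Lymphoid-primed multipotent progenitors (MPP4) were compared with long-term hematopoietic stem cells (HSC) for open chromatin after bone marrow transplantation in mice. The comparison used 12 of the 24 ATAC-seq libraries of the study, chosen by their subset label: 6 of MPP4 and 6 of HSC. In each subset 3 libraries came from WT recipients and 3 from recipients labelled IκB–. All donor cells carried the CD45.1 marker and went into young CD45.2 recipients of either type, and 13 to 15 weeks later they were sorted from the marrow of femurs and tibias at 500 to 1500 cells per sample. The counts of 13905 nuclear regions out of 13910 in the deposited table were used, and recipient type was a covariate, so that each reported difference is that between subsets at a like recipient type. The labels do not describe the genetic change of the IκB– recipients, and they do not say whether replicates are separate animals, so p-values measure the spread between these samples, which may be technical. They give the HSC gate as negative for CD150, CD48 and Flt3 and the MPP4 gate as positive for Flt3, both among lineage-negative, Sca1-positive, Kit-high donor cells. HSC are more often gated as CD150-positive, and the group is used here under its label.

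HSC are largely dormant cells that can rebuild all blood lineages for life. MPP4 lie downstream of them, have lost long-term self-renewal and give rise mainly to lymphoid cells and also to granulocytes and macrophages. The receptor tyrosine kinase Flt3, which defines MPP4, supports their growth. In ATAC-seq, Tn5 transposase inserts adapters where DNA is accessible, so that counts are high at active promoters, which tend to be open in many cell types, and at distal enhancers, which are more often open in a few.

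The libraries were shallow. Nuclear counts ran from 107053 (IκB– HSC replicate 2) to 348374 (IκB– MPP4 replicate 1), with a mean of 231336 ± 91804 (SD, n = 6) in MPP4 and 179116 ± 52780 in HSC, and the mean difference of log2 totals was 0.32 (exact two-sided permutation within recipient type, p = 0.33). In IκB– recipients the means were 261028 ± 118208 (SD, n = 3) in MPP4 and 158922 ± 63676 in HSC. In WT recipients they were 201643 ± 66721 and 199310 ± 41064. Regions within 1 kb of a gene end took 66.3% ± 3.53 of nuclear counts in MPP4 and 67.5% ± 3.95 in HSC (exact permutation p = 0.615), and the mitochondrial share of all counts was 7.01% ± 2.53 and 8.53% ± 2.57 (exact permutation p = 0.315). Both libraries that stood apart were HSC of IκB– recipients. Replicate 3 had the highest gene-end share (73.8%) and a score of 74.3 on the first principal component, which held 23.9% of the variance, whereas the other 11 libraries lay between -48.7 and 28.9. Replicate 2 had the fewest counts, the highest mitochondrial share (12%) and a score of 62.7 on the third component (12.6% of the variance), on which the other 11 lay between -23.4 and 17.1. The second component (16.4% of the variance) followed the subsets more closely. On it the HSC libraries lay between -31 and 0.383 and the MPP4 libraries between -4.33 and 36.4, with some overlap. In all 4 groups the gene-end share was lowest in replicate 1 and highest in replicate 3. Libraries of 1 subset correlated with each other slightly more (mean Spearman correlation 0.668) than with the other subset (0.642), a difference of 0.0253 (exact one-sided permutation p = 0.05, where the smallest possible value is 0.0025), which does not fall under 0.05.

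Few regions passed the test of MPP4 against HSC. Of 9769 regions with enough counts to test, 42 (0.43%) passed an adjusted p of 0.05 and are referred to as called. Accessibility was higher in MPP4 in 35 of them (0.358% of those tested) and lower in 7 (0.0717%). This split depended on 1 library, the scaling and the covariates: it was 56 higher and 72 lower without IκB– HSC replicate 3, 46 and 26 with cyclic loess, and 137 and 117 with the gene-end share of each library as a covariate. With libraries blocked by replicate number into 6 pairs, which the labels do not state, 220 regions were called, 142 higher and 78 lower. The largest gains lay near Pfpl, Tmed3 and Plpp3. Losses of more than 2 on the log2 scale lay near Ndst3 and in Gucy1b1. At the promoter of Cebpa, the gene of a transcription factor needed for granulocyte and macrophage progenitors, the mean level was 44.5 ± 14.5 CPM in HSC and 105 ± 23.1 CPM in MPP4. The test was edgeR's quasi-likelihood F test on raw counts with Benjamini-Hochberg adjustment over all tested regions, and levels are given in CPM, that is counts per 1000000 after TMM scaling, with the SD over 6 libraries.

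Each called region differed by at least 1 on the log2 scale, and 19 by at least 2. The 42 regions lay mostly away from gene ends: 20 were inside a gene body, 18 were outside genes and 4 were within 1 kb of a gene end. Of all tested regions, 64.3% were within 1 kb of a gene end, 21.1% in a gene body and 14.4% outside genes. The called regions had a median level of 51.5 CPM, against 77.5 CPM over all tested regions. The median log2 difference over all tested regions was -0.03. At an unadjusted p under 0.05, 462 regions (4.73%) were higher and 397 (4.06%) lower. In 57 regions (0.583%) the 6 libraries of one subset did not overlap the 6 of the other, and 19 of the called regions were among them. In called regions a lack of overlap largely follows from their choice by p in the same libraries and adds no separate support.

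**Figure D1:**
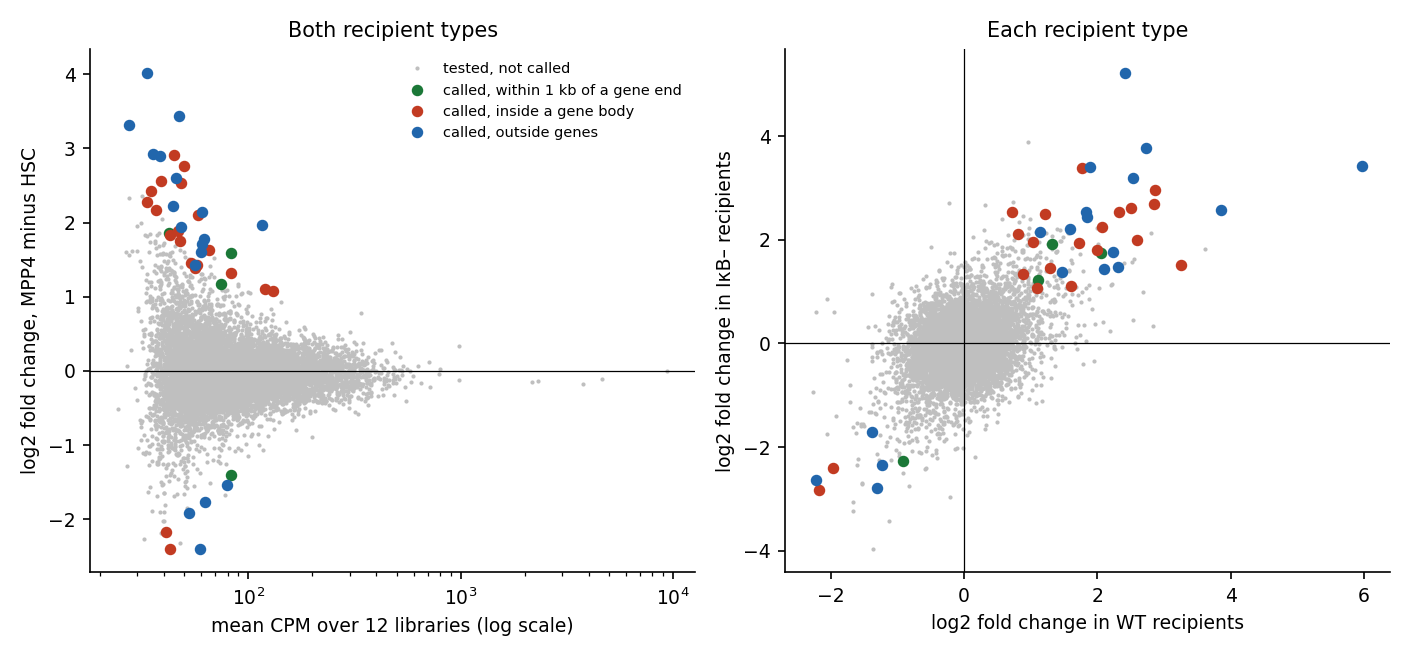
Log2 fold change of MPP4 against HSC for the 9769 tested regions, on the left against the mean CPM over 12 libraries (log scale) and on the right as the value in IκB– recipients against that in WT recipients. Grey points are regions that were not called, and coloured points are the 42 called regions by position, 4 within 1 kb of a gene end, 20 inside a gene body and 18 outside genes; on the right all 42 lie in the quadrants of like sign, which follows largely from their choice over both recipient types.

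The region with the smallest p lay 31507 bp from the nearest end of Tmed3, which encodes a cargo receptor of early secretory transport (chr9:89667369-89667696, mm10, outside genes). Its CPM ranged from 0 to 18.4 in HSC (median 6.36) and from 36.8 to 151 in MPP4 (median 87.1). The lowest MPP4 library was thus above the highest HSC library, and 2 of the 3 IκB– HSC libraries held no count there. It rose by 3.43 ± 0.51 (SE) on the log2 scale in MPP4 (edgeR quasi-likelihood adjusted p = 0.000989). The counts behind it were 7 in all HSC libraries and 117 in all MPP4 libraries. The region could thus pass the count filter only through MPP4, and the size of its difference is conditional on that.

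A region inside Ccdc93, whose product is part of a complex for recycling membrane proteins from endosomes, followed (chr1:121478326-121478658). HSC libraries held 0 to 24.7 CPM (median 12.7) and MPP4 libraries 38.4 to 127 CPM (median 85.4). These ranges do not overlap, and the MPP4 libraries of IκB– recipients were the 3 highest. The log2 difference was 2.76 ± 0.42 (edgeR adjusted p = 0.000989).

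Near Acss1, which encodes a mitochondrial acetyl-CoA synthetase, the called region was the most accessible of the first 15 (chr2:150673850-150674413, outside genes, 5610 bp from the gene end). It held 16.5 to 99.4 CPM in HSC (median 30.3) and 65.8 to 330 CPM in MPP4 (median 181). The ranges overlap: IκB– HSC replicate 3 was above the lowest MPP4 library. The log2 difference was 1.96 ± 0.31 (edgeR adjusted p = 0.0016), and 2.29 without that library. This region and that near Pfpl were the 2 that were called in every alternative fit that tested them.

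Inside Ccdc88c, which encodes a Dishevelled-binding protein of Wnt signalling (chr12:100986609-100986909), HSC libraries held 0 to 21.7 CPM (median 9.83) and MPP4 libraries 57.2 to 111 CPM (median 76). No MPP4 library came near the HSC range, and the log2 difference was 2.91 ± 0.47 (edgeR adjusted p = 0.0016). Inside Dbx1, a homeobox gene of the developing nervous system (chr7:49633364-49633689), the ranges were 0 to 41.8 CPM (median 22) and 65.4 to 122 CPM (median 92.4), again without overlap. There the log2 difference was 2.11 ± 0.35 (edgeR adjusted p = 0.00227). Near Pfpl, named as a pore-forming protein-like gene, the region held 3 counts in all HSC libraries and 80 in all MPP4 libraries (chr19:12435136-12435487). That is a ratio of 20.5, with an exact 95% interval of 6.77 to 101 that covers counting error only (edgeR adjusted p = 0.00487). With so few HSC counts the region could pass the count filter only through its MPP4 libraries, and the ratio is conditional on that. One MPP4 library was as low as 5.48 CPM, within the HSC range of 0 to 9.94 CPM.

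Regions near Siglech and Plac8 and inside Nod2 also rose. The one near Siglech, which encodes a lectin typical of plasmacytoid dendritic cells, rose by 2.60 ± 0.47 (chr7:55784590-55784940, edgeR adjusted p = 0.00487), with 0 to 24.7 CPM in HSC and 27.1 to 151 CPM in MPP4. Plac8, expressed in lymphoid and myeloid progenitors, had a region 12873 bp away that rose by 1.61 ± 0.32 (chr5:100585126-100585546, edgeR adjusted p = 0.0134). Its HSC libraries held 14.9 to 43.3 CPM and its MPP4 libraries 68.3 to 137 CPM. In neither of these regions did the libraries of the 2 subsets overlap. In the body of Nod2, which encodes an intracellular sensor of bacterial cell wall fragments, accessibility rose by 1.63 ± 0.35 (chr8:88668655-88669043, edgeR adjusted p = 0.0221). It ranged from 10.4 to 49.5 CPM in HSC and from 45 to 160 CPM in MPP4, and the ranges just overlap.

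The other regions among the 15 with the smallest p rose by 1.33 to 2.89 on the log2 scale. They lay near Cenpe (2.89 ± 0.55), which encodes a kinetochore motor, near Bcas1 (2.22 ± 0.44), inside App (2.54 ± 0.51), which encodes the amyloid precursor protein, and inside Arhgap10 (1.33 ± 0.27), which encodes a GTPase-activating protein. One lay at a gene end of Rassf2 (1.59 ± 0.31), which encodes a Ras-association domain protein, and 2 had no protein-coding gene within 50 kb (chr6:95334838-95335218, 2.14 ± 0.39, and chr14:118371344-118371755, 1.78 ± 0.33). The edgeR adjusted p-values of these 7 ran from 0.00487 (both regions without a gene) to 0.0134 (App and Arhgap10). Their levels were 8.62 CPM (Cenpe) to 48.4 CPM (Arhgap10) in HSC and 68 CPM (Cenpe) to 126 CPM (Rassf2) in MPP4. The remaining 20 regions that rose had adjusted p-values up to 0.0487 and log2 differences of 1.08 to 3.32, the latter near Plpp3 (chosen for its size after its value was seen), which had 4 counts in HSC and 67 in MPP4.

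**Figure D2:**
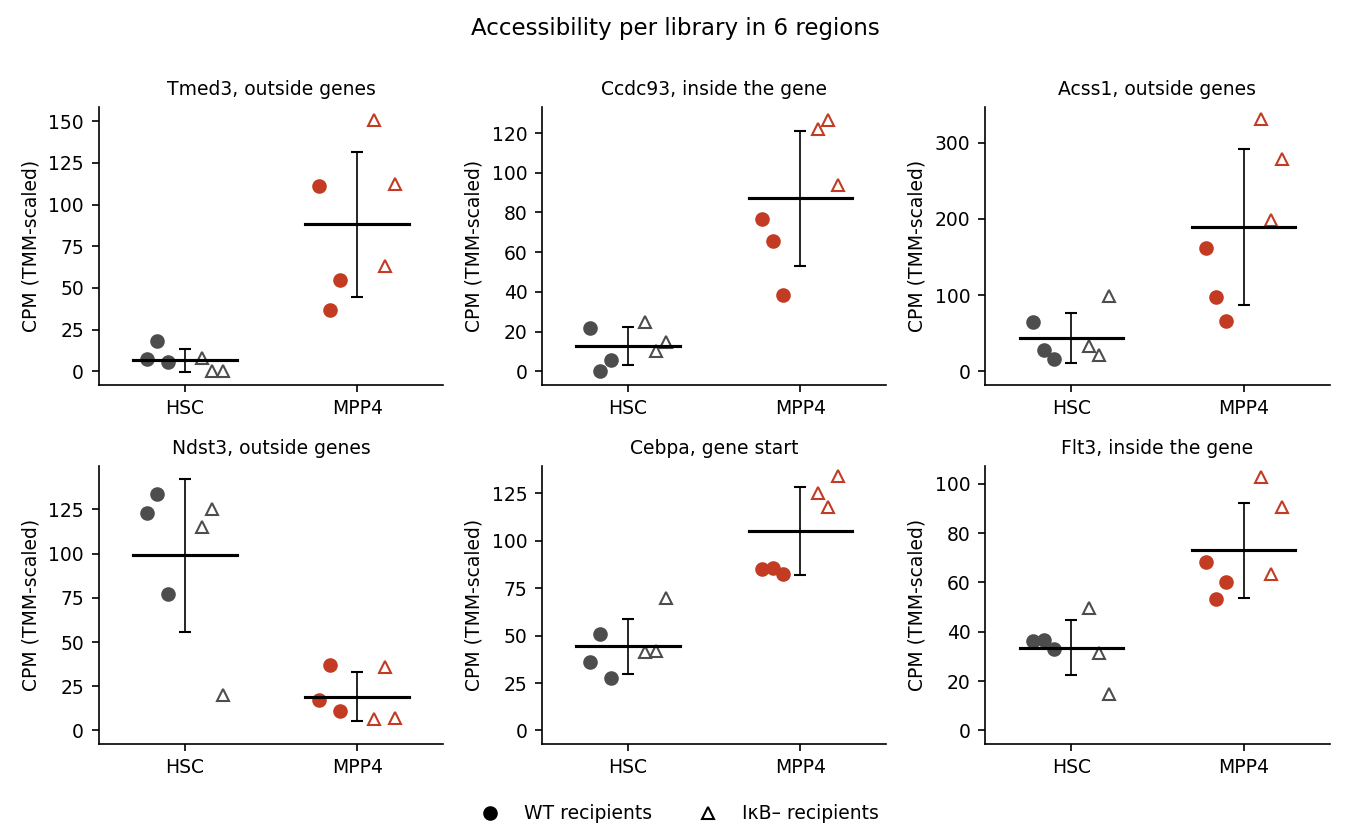
CPM per library in 6 regions, with filled circles for WT recipients and open triangles for IκB– recipients, a line at the mean and bars of 1 SD over 6 libraries. The 6 MPP4 libraries lie above all 6 HSC libraries in the regions of Tmed3, Ccdc93, Cebpa and Flt3, and 1 HSC library falls within the MPP4 range near Ndst3 and 1 near Acss1. The Flt3 region was not called in the reported fit.

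Among the 7 regions that fell, the one near Ndst3, which encodes an enzyme of heparan sulfate synthesis, had the smallest p (chr3:123697843-123698167, outside genes, 6669 bp from the gene end). HSC libraries held 19.9 to 134 CPM (median 119) and MPP4 libraries 6.42 to 36.8 CPM (median 14). Only IκB– HSC replicate 3, at 19.9 CPM, lay within the MPP4 range. The region fell by 2.39 ± 0.43 on the log2 scale (edgeR adjusted p = 0.00487).

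Inside Gucy1b1, which encodes the beta subunit of the soluble guanylate cyclase that senses nitric oxide (chr3:82061457-82061899), HSC libraries held 34.8 to 107 CPM (median 59.2) and MPP4 libraries 0 to 24.5 CPM (median 14). Near Esf1, which encodes a nucleolar protein (chr2:140097108-140097415), the ranges were 54.7 to 116 CPM (median 85.5) and 0 to 53.1 CPM (median 17.3). These were the 2 regions that fell without overlap of the libraries. Their log2 differences were -2.17 ± 0.50 and -1.91 ± 0.40 (edgeR adjusted p = 0.0389 and 0.0177). When libraries were left out in turn, the Gucy1b1 call held in 1 of 12 fits.

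Of the others that fell, 3 are described here. They lay at a gene end of Tmem184a (-1.40 ± 0.32), near Slc46a3 (-1.53 ± 0.36), which encodes a lysosomal transporter, and at chr3:140950344-140950672 (-1.77 ± 0.36), with no gene within 50 kb. EdgeR adjusted p-values were 0.0359, 0.0472 and 0.0144. In each of the 3 the libraries of the subsets overlapped. With libraries left out in turn, the call held in 4 of 12 fits at Tmem184a, in 3 near Slc46a3 and in 8 at the region without a gene.

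The call at the promoter of Cebpa is shown with its sequence because it was the only called region on the myeloid list and spans the whole stretch printed. The region (chr7:35119022-35119411) is centred 77 bp upstream of the RefSeq start. The 250 bases before that start, on the plus strand (chr7:35119043-35119292, RefSeq, GRCm38.p6), were searched on both strands for 12 motifs and held none. Of 32851 promoters of the same length, 64.1% held the ETS core GGAAG, 2.44% the PU.1 core GAGGAAGT (which contains the ETS core), 14.1% the RUNX site TGTGGT, 9.99% the GATA site AGATAA, 13% the E-box CAGCTG and 17.2% the E2A-type E-box CAGGTG. The AP-1 site TGAGTCA was in 4.46%, the CREB site TGACGTCA in 1.55%, the MEIS site TGACAG in 15.9%, the NF-κB core GGGAATT in 3.08%, the SP/KLF box GGGGCGGGG in 10.4% and the NRF1 site in 0.782%. The sequence reads 5′ to 3′, and no letters are in capitals because no motif matched.
Cebpa promoter: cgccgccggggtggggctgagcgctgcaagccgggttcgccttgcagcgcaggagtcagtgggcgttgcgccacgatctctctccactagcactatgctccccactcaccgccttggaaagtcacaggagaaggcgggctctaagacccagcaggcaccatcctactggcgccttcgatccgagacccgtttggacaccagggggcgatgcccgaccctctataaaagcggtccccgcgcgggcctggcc
The CPM at this promoter was 27.5 to 69.6 in HSC (median 41.5) and 82.3 to 134 in MPP4 (median 102). All MPP4 libraries were above all HSC libraries, and within MPP4 the 3 libraries of IκB– recipients were the higher ones. The log2 difference was 1.17 ± 0.27 (edgeR adjusted p = 0.0359), with 1.11 in WT and 1.23 in IκB– recipients. The call was lost with DESeq2 (adjusted p = 0.0547), the stricter count filter (0.0553), limma-voom (0.106) and log2 total counts as a covariate (0.132), with log2 differences of 1.09 to 1.20 in these fits. With libraries left out in turn it held in 4 of 12 fits. It held without IκB– HSC replicate 3 (1.32, adjusted p = 0.00823).

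Flt3, the receptor used to separate the 2 subsets, served as a check of the labels. It had 3 regions, and in each the estimate was above 0, but none was called in the reported fit. The one with the smallest p, inside the gene (chr5:147366418-147366731), held 14.9 to 49.4 CPM in HSC (median 34.6) and 53.1 to 103 CPM in MPP4 (median 65.8). The libraries of the 2 subsets did not overlap. Its log2 difference was 1.14 ± 0.33 (edgeR adjusted p = 0.114). The region was called in 3 of the 24 alternative fits that tested it. Among them were the gene-end share as a covariate (1.09, edgeR adjusted p = 0.0446) and the replicate block of 6 pairs (1.13, edgeR adjusted p = 0.0419). Another region of the gene, at chr5:147341072-147341291, had too few counts to be tested, with 11 in HSC and 47 in MPP4.

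At the promoter of Flt3 the region chr5:147400166-147400583 held 21.7 to 93.9 CPM in HSC (median 60.9) and 38.4 to 145 CPM in MPP4 (median 105), with overlap. The log2 difference was 0.70 ± 0.31 (edgeR adjusted p = 0.488). The 250 bases before the RefSeq start (minus strand, chr5:147400490-147400739, GRCm38.p6), of which 94 lie in this region, are shown beside those of Cebpa for the contrast of a promoter that was not called; capitals mark the 1 match among the 12 motifs, to the ETS core, read as CTTCC because it lies on the opposite strand. Such a match is a description of the letters and not a binding site.
Flt3 promoter: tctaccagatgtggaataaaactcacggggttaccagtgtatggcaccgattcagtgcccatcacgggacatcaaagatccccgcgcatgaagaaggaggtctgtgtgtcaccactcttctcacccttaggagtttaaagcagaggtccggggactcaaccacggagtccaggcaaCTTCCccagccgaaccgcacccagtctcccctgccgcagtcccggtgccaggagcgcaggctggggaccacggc
Of the other genes of the sort gate, Slamf1 (CD150) had 28 counts in HSC and 15 in MPP4 in its only region and was not tested, nor were the 2 regions of Kit. The 2 regions of Ptprc, the CD45 gene, had log2 differences of 0.50 ± 0.28 and -0.13 ± 0.30 (edgeR adjusted p = 0.647 and 0.959). Cd48 and Ly6a (Sca1) had no region assigned to them in the table.

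No region of the lymphoid priming genes was called in the reported fit. Of 41 such genes, 13 had 21 tested regions. Of these regions 0 were called, 7 had an unadjusted p under 0.05 with a higher level in MPP4 and 0 with a lower one. Over all regions tested these shares were 4.73% and 4.06%. Among the 7 were the 2 tested regions of Flt3, by which the subsets were sorted, so these 2 are no independent sign of lymphoid priming. The median log2 difference of the 21 regions was 0.19, against -0.03 over all tested regions. Il7r, Rag1 and Rag2, which mark later lymphoid commitment, had no region assigned.

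Besides the region inside Flt3, the smallest p on this list belonged to a region inside Ikzf1, which encodes the lymphoid transcription factor Ikaros (chr11:11763105-11763696). It held 33 to 83.5 CPM in HSC (median 47.1) and 54.8 to 148 CPM in MPP4 (median 98.2), with overlap, and its log2 difference was 0.997 ± 0.286 (edgeR adjusted p = 0.114). A region near Bcl11a, whose product is needed for B and T cell development, had a log2 difference of 1.39 ± 0.42 (edgeR adjusted p = 0.14). One inside Notch1, the receptor that commits progenitors to the T lineage, had 1.05 ± 0.37 (edgeR adjusted p = 0.278). When the gene-end share of each library was added as a covariate, the regions of Flt3 (edgeR adjusted p = 0.0446), Ikzf1 (0.029) and Bcl11a (0.048) were called as higher.

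**Figure D3:**
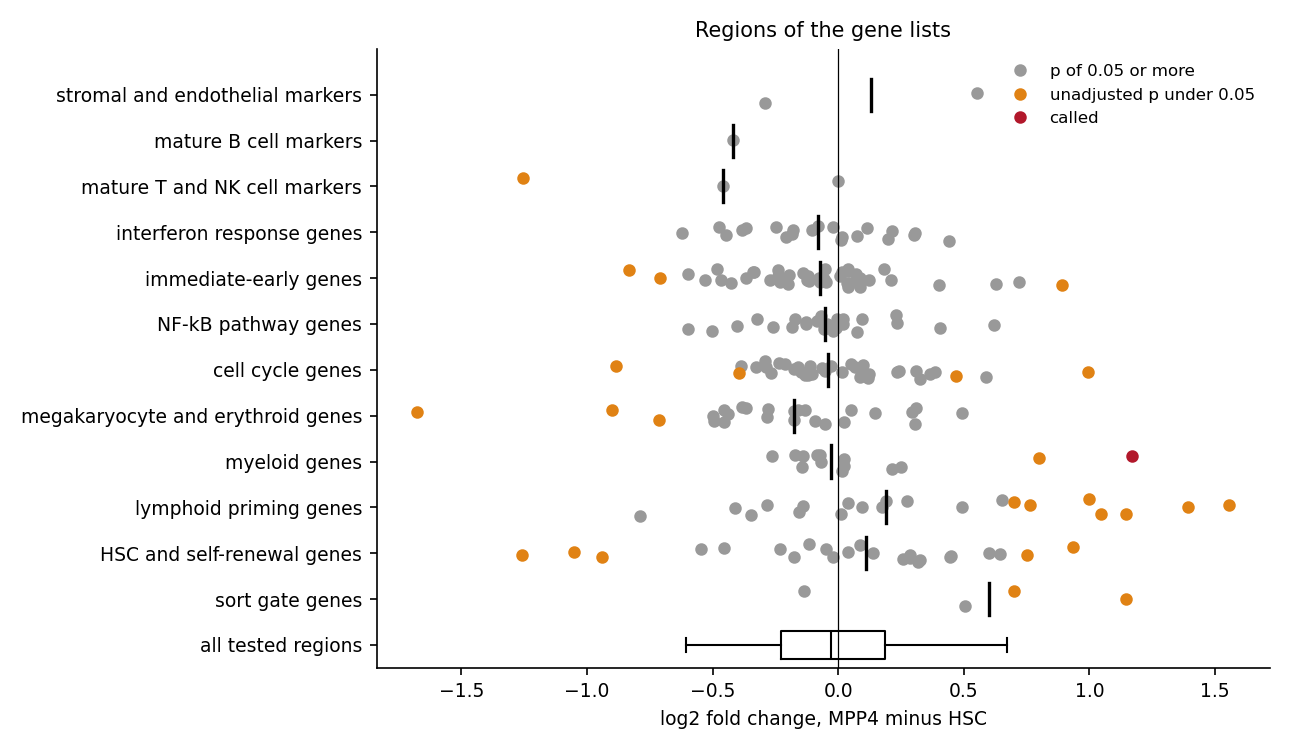
Log2 fold change of MPP4 against HSC for each tested region of the gene lists, with the list median as a black line; the box shows all tested regions (quartiles, whiskers from the 5th to the 95th percentile). Grey points have an unadjusted p of 0.05 or more, orange ones an unadjusted p under 0.05, and the red point is Cebpa, the only called one; the 7 orange points of the lymphoid list all lie above 0 and the 3 of the megakaryocyte and erythroid list below it.

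Among HSC and self-renewal genes no region was called either. Of 24 tested regions 0 were called, 2 had an unadjusted p under 0.05 on the higher side (4.73% of all tested regions) and 3 on the lower side (4.06%), and the median was 0.11. The 2 higher ones were both inside Meis1 (0.94 ± 0.36 and 0.75 ± 0.29), a homeobox gene of HSC. Among the lower ones were regions inside Esam (-0.94 ± 0.33), which encodes an adhesion protein of HSC and endothelium, and inside Trpc6 (-1.26 ± 0.47), which encodes a calcium channel (edgeR adjusted p = 0.25 and 0.307). Once the gene-end share was added to the fit, the Trpc6 region was called as lower (-1.40, edgeR adjusted p = 0.0446).

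Genes of the megakaryocyte and erythroid lineages also had no called region in the reported fit. Of their 25 tested regions 0 had an unadjusted p under 0.05 on the higher side and 3 on the lower side (4.73% and 4.06% of all tested regions), and the median was -0.18. A region inside Cavin2, which encodes a caveolar coat protein found in platelets (chr1:51300260-51300616), held 29.8 to 198 CPM in HSC (median 130) and 7.24 to 65.4 CPM in MPP4 (median 39.4), with overlap. Its log2 difference was -1.68 ± 0.40 (edgeR adjusted p = 0.0542), and -1.86 without IκB– HSC replicate 3 (adjusted p = 0.00168). Regions inside Zfpm1 (FOG1, the cofactor of GATA1) and Runx1 had -0.90 ± 0.36 and -0.72 ± 0.33 (edgeR adjusted p = 0.401 and 0.53).

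The other lists held no called region beside Cebpa. Over all tested regions, 4.73% had an unadjusted p under 0.05 on the higher side and 4.06% on the lower side, for comparison with the counts that follow. Of 14 tested myeloid regions 2 had an unadjusted p under 0.05 and a higher level, Cebpa and a region of Cd33 (0.80 ± 0.30, edgeR adjusted p = 0.341), and the median was -0.03. Cell cycle genes had 36 tested regions, 2 on each side at an unadjusted p under 0.05, near those shares, and a median of -0.04. Of 42 regions of immediate-early genes 1 was on the higher and 2 on the lower side, among them the Fos promoter (-0.71 ± 0.30, edgeR adjusted p = 0.436). NF-κB pathway genes (24 regions, median -0.05) and interferon response genes (21 regions, median -0.08) had 0 regions at an unadjusted p under 0.05 on either side.

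Lineage-positive cells were depleted before the sort, per the labels, and few markers of mature cells had a region that could be tested. Of 16 T and NK cell genes 3 had a tested region. The lowest was near Prf1, the perforin gene, with -1.25 ± 0.34 (edgeR adjusted p = 0.0925), and it passed the threshold once that covariate was added (adjusted p = 0.0127). Cd3e, Cd3g, Cd4, Cd8a and Ncr1 had no region assigned. Of the 10 B cell genes 1 had a tested region, Cr2 (-0.42 ± 0.35), while Ms4a1 had none; 2 of the 16 stromal and endothelial genes and 0 of the 9 mast cell and basophil genes had one. In these bulk samples a smaller share of cells with an open site and a lower accessibility per cell cannot be told apart.

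The other 2 progenitor subsets, MPP2 (biased to megakaryocytes and red cells) and MPP3 (biased to granulocytes and macrophages), were not used to choose the regions. In all 7 regions that fell in MPP4 the mean level was lower in MPP3 than in MPP2, against 47.7% of all tested regions. The medians of the 7 were 96.4 CPM in HSC, 106 CPM in MPP2, 19.4 CPM in MPP3 and 20.6 CPM in MPP4. Of the 35 regions that rose, 32 were higher in MPP3 than in MPP2, against 52.3% of all tested regions, and their medians were 20.4, 33.1, 53.7 and 81.9 CPM in the same order. The levels of HSC and MPP4 in these regions follow from the choice of regions, and MPP2 and MPP3 are set side by side here without a test.

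Single regions show this pattern. Near Ndst3 the level was 76 ± 34.9 CPM in MPP2 (SD, n = 6) and 19.4 ± 10.2 CPM in MPP3 (n = 5), the latter close to the 19.2 CPM of MPP4. At Cebpa it was 49.5 ± 14.6 CPM in MPP2 and 116 ± 21.6 CPM in MPP3. Inside Ccdc93 the levels lay closer, at 67.2 ± 11 CPM in MPP2 and 72.7 ± 24.5 CPM in MPP3, a difference within 1 SD. The 3 regions that rose but were not higher in MPP3 than in MPP2 were those assigned to Cenpe (22.5 CPM in MPP2 and 19.5 in MPP3), Trit1 (44.4 and 41.9) and Panx1 (175 and 169). WT MPP3 replicates 2 and 3 differed by no more than sampling noise, with a chi-square of 0.995 per degree of freedom over 13121 regions, and were counted as 1 sample, whereas the pairs within the 4 groups of HSC and MPP4 had 1.35 to 3.84. The other pairs within the MPP2 and MPP3 groups had 1.18 to 3.05.

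**Figure D4:**
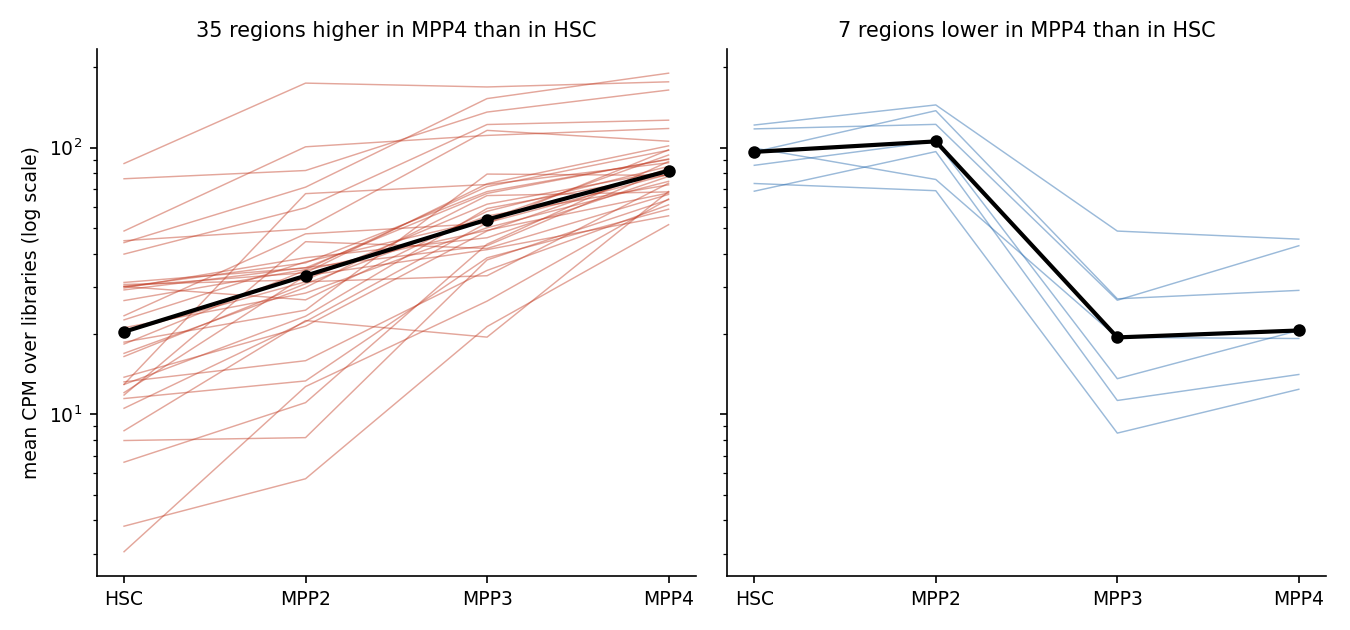
Mean CPM (log scale) of the called regions in the 4 subsets, 1 thin line per region and the median in black, for the 35 regions higher in MPP4 than in HSC (left) and the 7 lower (right). Lines join the subsets for reading only and imply no order of time; the median of the 7 falls from 106 CPM in MPP2 to 19.4 CPM in MPP3.

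Within 1 recipient type, with 3 libraries a subset, few regions passed. In WT recipients 1 of 9769 regions (0.0102%) was called, that inside Dbx1, with a log2 difference of 3.25 (edgeR adjusted p = 0.0333). It rested on 4 counts in the WT HSC libraries against 41 in WT MPP4. No region was called in WT recipients with DESeq2, limma-voom, cyclic loess or log2 total counts as a covariate, nor in 9 of the 12 fits without 1 library, among them each that left out a WT library. In IκB– recipients 3 regions (0.0307%) were called, near Tmed3 (edgeR adjusted p = 0.00511), inside Nod2 (2.54, 0.0307) and near Acss1 (2.22, 0.0332). Near Tmed3 the IκB– HSC libraries held 1 count and the IκB– MPP4 libraries 85, a ratio of 50.9 with an exact 95% interval of 8.89 to 2033 (counting error only). That ratio too is conditional on a region that passed the count filter through MPP4. All 4 were higher in MPP4. In IκB– recipients the calls and their direction depended on the fit: 11 regions were higher and 72 lower without IκB– HSC replicate 3, 2 and 18 with limma-voom and quality weights, 51 and 42 with the gene-end share added, and 5 and 2 with cyclic loess. No region was called there with DESeq2, the stricter filter or log2 total counts as a covariate, nor without IκB– HSC replicate 2, IκB– MPP4 replicate 1 or IκB– MPP4 replicate 3. Of the 42 regions called over both recipient types, the 35 that rose had a median log2 difference of 1.88 in WT and 2.14 in IκB– recipients, and the 7 that fell had -1.37 and -2.41. Their sign was alike in both types, as in 5673 of the 9769 tested regions, but that follows largely from their choice over both types.

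Whether the subsets differ by a different amount in the 2 recipient types was tested as an interaction. It gave 0 called regions (0.0%) with edgeR, as with DESeq2 and limma-voom, and 217 at an unadjusted p under 0.05 (2.22%). Of the 42 called regions 4 were among the 217, and the smallest p of these 4 was in Nod2, where the difference was 0.71 in WT and 2.54 in IκB– recipients (unadjusted p = 0.0129, adjusted p = 1). The smallest interaction p belonged to the promoter of Car7, a carbonic anhydrase gene (0.97 in WT and -1.08 in IκB– recipients, unadjusted p = 0.000381, adjusted p = 1). No dependence of the subset difference on recipient type was thus detectable at this depth and with 3 libraries a group. That does not show that there is none. A difference in level between WT and IκB– recipients is not covered by this test.

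The number of called regions depended on single libraries. It was 128 without IκB– HSC replicate 3, with 39 of the 42 among them, 28 without IκB– HSC replicate 2, and 10 without IκB– MPP4 replicate 1, 11 without IκB– MPP4 replicate 3, 19 without WT MPP4 replicate 1, 23 without WT MPP4 replicate 2 and 24 without WT HSC replicate 1. In all 12 such fits 8 of the 42 regions were called, among them those of Tmed3, Ccdc93, Acss1, Ccdc88c, Dbx1, Pfpl and Ndst3 and the one at chr14:118371344-118371755. With DESeq2 32 regions were called as higher and 14 as lower. With log2 total counts as a covariate 12 regions were called (11 higher and 1 lower), and the part of depth in the other calls was not tested further. Adding the gene-end share gave 254 called regions (137 higher and 117 lower), with all 42 among them. No called region had the opposite sign in any of the 25 alternative fits.

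**Figure D5:**
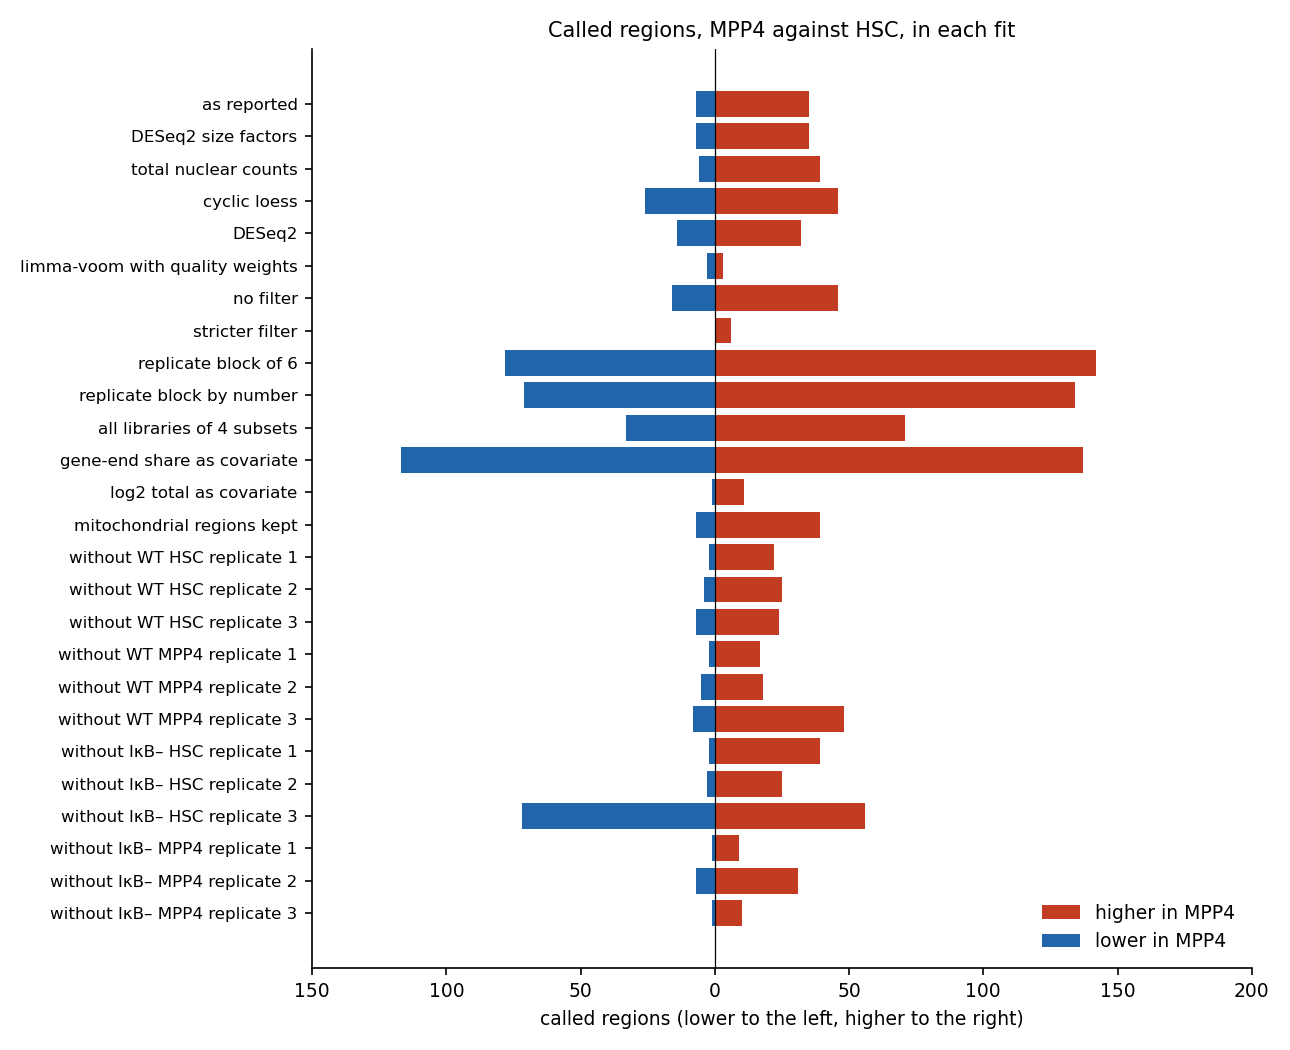
Number of called regions in the reported fit and in each of the 25 alternative fits, with regions higher in MPP4 to the right and those lower to the left. The reported fit has 35 and 7; without IκB– HSC replicate 3 the counts are 56 and 72, and after adding the gene-end share they are 137 and 117.

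The threshold falls within a smooth series. The last called region, inside Tep1, which encodes a telomerase-associated protein, had 29.9 ± 12.7 CPM in HSC and 84.5 ± 30.7 CPM in MPP4 (1.43 ± 0.34, edgeR adjusted p = 0.0487). The first one outside, in Ptpre, which encodes a receptor-type tyrosine phosphatase, had 55.4 ± 23.9 and 124 ± 28.3 CPM (1.14 ± 0.28, edgeR adjusted p = 0.0512).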

How the data were processed

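The authors deposited 1 table of unnormalised counts, with a row per region and a column per library, and 0 columns belonged to no listed sample. Per the submitters' processing notes the build was mm10 and the tools Bowtie2, SAMtools, Picard, MACS2 2.1.0 and deepTools; how reads were offset for Tn5 and counted is not given in the sources used here. The 5 mitochondrial regions were dropped. Region widths ran from 112 to 3092 bp (median 346). Regions were named by the protein-coding gene of RefSeq GRCm38.p6 with the nearest end within 50 kb, which gave 12218 of 13905 a gene; the table holds no exons or introns.

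Counts were fitted with edgeR 4.0.16 (R 4.3.3): TMM, filterByExpr with the 4 groups, a robust quasi-likelihood fit with 9 residual degrees of freedom, recipient type as covariate, and Benjamini-Hochberg adjustment over 9769 regions. Group means (8 degrees of freedom) gave the values within 1 recipient type and the interaction. Single values per library were compared by exact permutation within recipient type (400 arrangements). Alternatives were DESeq2 1.42.0, limma 3.58.1 (voom), other scalings, filters, covariates and replicate blocks, and 12 fits that each left out 1 library. The labels give replicate numbers no meaning across groups, so a replicate block is used only in an alternative.

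Named are up to 15 called regions in each direction by p, the 2 smallest p in each direction within each recipient type and of the interaction, regions of the sort gate genes, up to 4 regions of each of 13 gene lists, and the regions next to the threshold. The comparison, the members and the lists were chosen with earlier results of these data known. A few items, 1 called region among them, are counted in the totals but not reported here.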

Additional observations from a re-analysis of the deposited data

How the results depend on the processing

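Over both recipient types 42 regions were called. The count was 72 with cyclic loess, 6 with limma-voom and quality weights, 6 with the stricter filter (at least 10 counts in 6 libraries, under which 13 of the 42 could be tested), 104 with all libraries of the 4 subsets in 1 fit, 254 with the gene-end share and 12 with log2 total counts as a covariate, and 10 to 128 without 1 library. DESeq2 gave 46, DESeq2's size factors 42, total counts 45, no filter 62 and mitochondrial regions kept 46. In WT recipients (1 as reported) it was 0 with cyclic loess, DESeq2, limma-voom and log2 total counts, 2 with the gene-end share, and 0 to 1 without 1 library. In IκB– recipients (3) it was 7 with cyclic loess, 0 with DESeq2, the stricter filter and log2 total counts, 20 with limma-voom (2 higher and 18 lower), 11 with all libraries, 93 with the gene-end share, and 0 to 83 without 1 library, the 83 without IκB– HSC replicate 3 (11 higher and 72 lower). The interaction gave 0 in each of these fits and 0 to 0 without 1 library. With the replicate block of 6 pairs the counts were 220 (142 higher and 78 lower, with regions of Flt3, Ikzf1, Bcl11a, Cavin2 and Prf1 called), 87 for IκB– (49 higher and 38 lower) and 6 for WT recipients, and 205, 84 and 6 with the number alone as the block; 11 of 12 libraries correlated best with the library of their own number, a hint from the data that the labels do not state; the exception, IκB– HSC replicate 2, had 0.0402 with its own number and 0.0504 with another, and the other 5 same-numbered pairs had 0.2 to 0.322.

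The difference in gene-end share (-1.18 points) was -2.37 to 0.435 without 1 library, with the sign reversed without WT MPP4 replicate 1 (0.171) and without IκB– HSC replicate 3 (0.435). The difference in log2 totals was 0.18 to 0.55 and that in mitochondrial share -2.46 to -0.871. The similarity difference was 0.0437 with Pearson's r (exact permutation p = 0.01), 0.0152 over regions with a mean of at least 10 counts (exact permutation p = 0.14), and 0.0145 to 0.0436 without 1 library (exact permutation p = 0.01 to 0.155). Of 1296 values for 53 named regions (without those named only by their p within 1 recipient type or for the interaction), 1145 kept direction and side of the threshold, 119 lost the call, 31 gained one and 1 changed sign, the Ptprc region inside the gene (-0.28 to 0.10 without 1 library, 0.10 without WT HSC replicate 2). The cause of these shifts was not tested. Called regions held few counts, with a median of 19 in all HSC libraries for those that rose.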
